A study of Mus musculus with 4 samples.

Results

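The fibroblast growth factor (FGF) receptors Fgfr1, Fgfr2, Fgfr3, Fgfr4 and Fgfrl1 and the ligands Fgf1, Fgf2, Fgf7 and Fgf18 were read from the gene count matrix of P6 mouse tibial cells. The members were chosen by gene symbol, and all 9 were found among the 31053 genes of the matrix. Of the 9 members, 8 reached 10 unique molecular identifiers (UMIs) per 1000000 UMIs (CPM) in at least 1 class of skeletal, stromal or vessel cells, and Fgfr4 did not. The cells came from 2 tibiae of 1 male mouse at postnatal day 6 with the genotype Col10a1Cre;Rosa26-Tdtomato;Irx3 +/Δ;Irx5 +/-, labelled as a heterozygous control for Irx3 and Irx5, and there was no other group. In this mouse the Col10a1 promoter drives Cre in hypertrophic chondrocytes (HCs), so that these cells and their descendants carry the tdTomato reporter. According to the study's methods an Irx3 allele is deleted in that lineage, while Irx5 is heterozygous in every cell. The 4 sequencing entries are 1 library, so no value has a replicate, no test between animals can be made, and every interval is a 95% interval of counting error alone.

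FGFs are secreted ligands that bind receptor tyrosine kinases on the cell surface, with heparan sulphate as a cofactor, and activate the RAS-MAPK, phosphoinositide 3-kinase and phospholipase C pathways. In the growth plate Fgfr3 is known as a brake on chondrocyte proliferation, and activating mutations of it cause achondroplasia. Fgfr1 and Fgfr2 are known for roles in HCs and in the osteoblast lineage, Fgf18 is a ligand made by the perichondrium, and Fgfrl1 is a receptor-like protein that lacks the tyrosine kinase domain.

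Levels are given per class of cells. Classes were rebuilt by clustering without the FGF genes and the other pathway genes listed further on, such as Spp1, Sox9 and Runx2. In the alternative with FGF genes kept, all of these genes were left in. Classes are named "-like" from marker genes. Among 16 named classes that are shown, 13 are of chondrocytes, osteoblasts, stroma and vessels. A level in CPM is the sum of a gene's UMIs over all cells of a class, divided by all UMIs of that class and scaled in this way. Each UMI counts 1 captured transcript end, so levels of different genes do not scale with gene length, although capture may differ between genes. Median depth ranged from 8985 UMIs per cell in endothelial-like cells to 33065 in HC-like cells. Shares of cells with a UMI are therefore given after each cell was thinned to 5000 UMIs. Leukocyte-like cells, which serve as a measure of background RNA, held 6.27 CPM of Fgfr3, 5.75 of Fgfr1, 1.95 of Fgfr2 and 6.30 of Fgfrl1. Their thinned shares were 3.07% for Fgfr3, 2.86% for Fgfr1, 0.883% for Fgfr2 and 2.15% for Fgfrl1, at a median of 11295 UMIs before thinning.

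Promoter windows of 300 bases from RefSeq (GRCm38.p6, 250 bases before to 50 bases after a start site) are shown for Fgfr3 and Fgfrl1, which were higher in chondrocytes before hypertrophy than in osteoblasts, and for Fgfr2, which was higher in immature osteoblasts and stroma. Windows were listed for 7 of the 9 members. Capitals mark the letters GGGCGG (GC box), ACAATG and ACAAAG (SOX family), ACCACA (RUNX family) and CACGTG (E-box) on either strand. The windows lie at chr5:33721474-33721773 and chr5:33722056-33722355 for 2 starts of Fgfr3 and at chr5:108693979-108694278 for Fgfrl1, all on the plus strand, and at chr7:130266759-130267058 on the minus strand for Fgfr2.
Fgfr3 start 1: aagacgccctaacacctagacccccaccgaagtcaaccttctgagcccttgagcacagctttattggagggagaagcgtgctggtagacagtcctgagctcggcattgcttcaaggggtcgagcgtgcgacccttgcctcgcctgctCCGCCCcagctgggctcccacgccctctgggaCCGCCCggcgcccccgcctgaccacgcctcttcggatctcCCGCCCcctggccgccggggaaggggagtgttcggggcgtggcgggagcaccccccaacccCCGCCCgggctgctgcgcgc
Fgfr3 start 2: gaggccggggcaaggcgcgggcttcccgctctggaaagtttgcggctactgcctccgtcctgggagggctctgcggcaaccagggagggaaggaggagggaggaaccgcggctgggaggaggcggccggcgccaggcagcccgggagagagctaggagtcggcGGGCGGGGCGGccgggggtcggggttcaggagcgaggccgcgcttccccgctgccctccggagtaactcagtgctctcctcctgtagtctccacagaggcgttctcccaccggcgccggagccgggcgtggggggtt
Fgfrl1: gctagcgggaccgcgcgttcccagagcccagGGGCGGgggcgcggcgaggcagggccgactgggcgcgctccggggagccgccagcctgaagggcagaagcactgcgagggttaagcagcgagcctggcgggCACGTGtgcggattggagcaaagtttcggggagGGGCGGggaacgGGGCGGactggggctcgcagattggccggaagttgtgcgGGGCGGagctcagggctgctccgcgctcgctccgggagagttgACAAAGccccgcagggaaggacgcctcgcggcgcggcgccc
Fgfr2: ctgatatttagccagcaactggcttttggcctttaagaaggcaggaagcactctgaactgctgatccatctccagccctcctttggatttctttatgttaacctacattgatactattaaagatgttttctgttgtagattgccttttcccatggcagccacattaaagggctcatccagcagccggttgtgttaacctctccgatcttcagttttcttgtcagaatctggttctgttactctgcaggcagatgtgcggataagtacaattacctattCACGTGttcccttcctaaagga

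The windows of Fgfr3 and Fgfrl1 had 69.7%, 73.0% and 73.7% GC, against a median of 52.7% over 32851 windows of all genes. The Fgfr2 window had 43.7% GC and 4 CG dinucleotides, where the others shown had 26 to 37. It was the only window listed for Fgfr2, a gene with 27 annotated transcripts over 2960900 bases. On the minus strand its annotated span begins at 133123350, far from this window. Whether these cells use the start shown was not tested. GC boxes were found in the Fgfr3 windows (4 matches in the first and 2 overlapping matches in the second) and the Fgfrl1 window (4 matches), and 35.7% of all windows hold one. Of the windows not shown, that of Fgfr4, which reached 10 CPM in no class of skeletal, stromal or vessel cells, also had 4 matches. Those of Fgf2 and Fgf18 had 1 each, and that of Fgf7 had none. The E-box letters occurred once each in the Fgfrl1 and Fgfr2 windows and in 7.15% of all windows. ACAAAG was found once in Fgfrl1 and in 18.7% of all windows, while ACAATG (12.6% of all windows) and ACCACA (16.8%) were not in these 4 windows. A match is a description of letters and not a binding site.

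Fgfr3 was the most abundant of the receptor kinases in chondrocytes between the resting and the hypertrophic stage. The gene (ENSMUSG00000054252, chr5:33721674-33737068, plus strand) held 137 CPM (118 to 158) in resting chondrocyte-like cells, 353 CPM (344 to 363) in maturing chondrocyte-like cells and 446 CPM (433 to 458) in pre-HC-like cells. It then stood at 90.5 CPM (80.8 to 101) in HC-like cells, which held 11303 CPM of Col10a1 against 989 CPM in pre-HC-like cells. The highest level of Fgfr3 was 614 CPM (590 to 639), in a chondrocyte cluster of unnamed stage led by 2610528A11Rik. That cluster held 799 CPM of the hypoxia-responsive gene Bnip3, 708 CPM of Pth1r and 47.8 CPM of Col10a1. At clustering resolutions of 0.6 and 1.5, with 3000 variable genes, or with the FGF and pathway genes kept, no cluster took that name. Whether the same cells formed a cluster under another name was not tested. Another chondrocyte cluster of unnamed stage, led by F3, held 174 CPM of Fgfr3 (164 to 184), and proliferating chondrocyte-like cells 311 CPM (296 to 326). Scrublet marked 22.9% of the proliferating chondrocyte-like cells as doublets.

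The share of thinned cells with a UMI of Fgfr3 was 41.5% in resting chondrocyte-like, 73.7% in maturing chondrocyte-like, 75.4% in proliferating chondrocyte-like, 84.3% in pre-HC-like and 30.5% in HC-like cells, and 93.6% in the cluster led by 2610528A11Rik. From maturing chondrocyte-like to pre-HC-like cells the log2 ratio of Fgfr3 levels, taken with 1 CPM added, was 0.33 (0.28 to 0.39). Intervals of log2 ratios come from the counts without the added CPM and can lie off-centre. This difference depended on where the clusters were split. It ran from -0.17 when the FGF and pathway genes were kept among the variable genes to 0.42 at a clustering resolution of 0.6. From pre-HC-like to HC-like cells the log2 ratio was -2.29 (-2.47 to -2.14), or a level 4.88 times lower. At a clustering resolution of 1.5, where the HC-like class grew from 105 to 183 cells, it was -0.90.

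Fgfr1 ran the other way along the chondrocytes. The gene (ENSMUSG00000031565, chr8:25513654-25575718, plus strand) held 366 CPM (334 to 400) in resting chondrocyte-like cells and 123 CPM (115 to 132) in the cluster led by F3. It was at 58.1 CPM (54.3 to 62.2) in maturing chondrocyte-like cells and 36.7 CPM (33.2 to 40.5) in pre-HC-like cells. In HC-like cells it was at 240 CPM (225 to 257), 6.41 times the pre-HC-like level on the scale with 1 CPM added, a log2 ratio of 2.68 (2.54 to 2.89). The share of thinned cells with a UMI followed, with 78.8% in resting chondrocyte-like, 17.5% in pre-HC-like and 55.2% in HC-like cells. The bone collagen gene Col1a1 was at 268 CPM in HC-like and 121 CPM in pre-HC-like cells. It was at 325 CPM in leukocyte-like and 8877 CPM in immature osteoblast-like cells. Col1a2 was at 1119 CPM in HC-like, 465 CPM in pre-HC-like, 268 CPM in leukocyte-like and 8864 CPM in immature osteoblast-like cells. The part of RNA from bone cells in the Fgfr1 level of the HC-like class was not tested. The neutrophil gene S100a8 was at 1130 CPM in HC-like and 34.8 CPM in pre-HC-like cells. Fgfr1 itself was at 5.75 CPM in leukocyte-like cells. What part neutrophil RNA had in the result was not tested. Resting chondrocyte-like cells held 1179 CPM of Col1a1, against 204 CPM in maturing chondrocyte-like cells. The part of RNA from bone cells in the Fgfr1 level of the resting class was not tested.

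**Figure D1:**
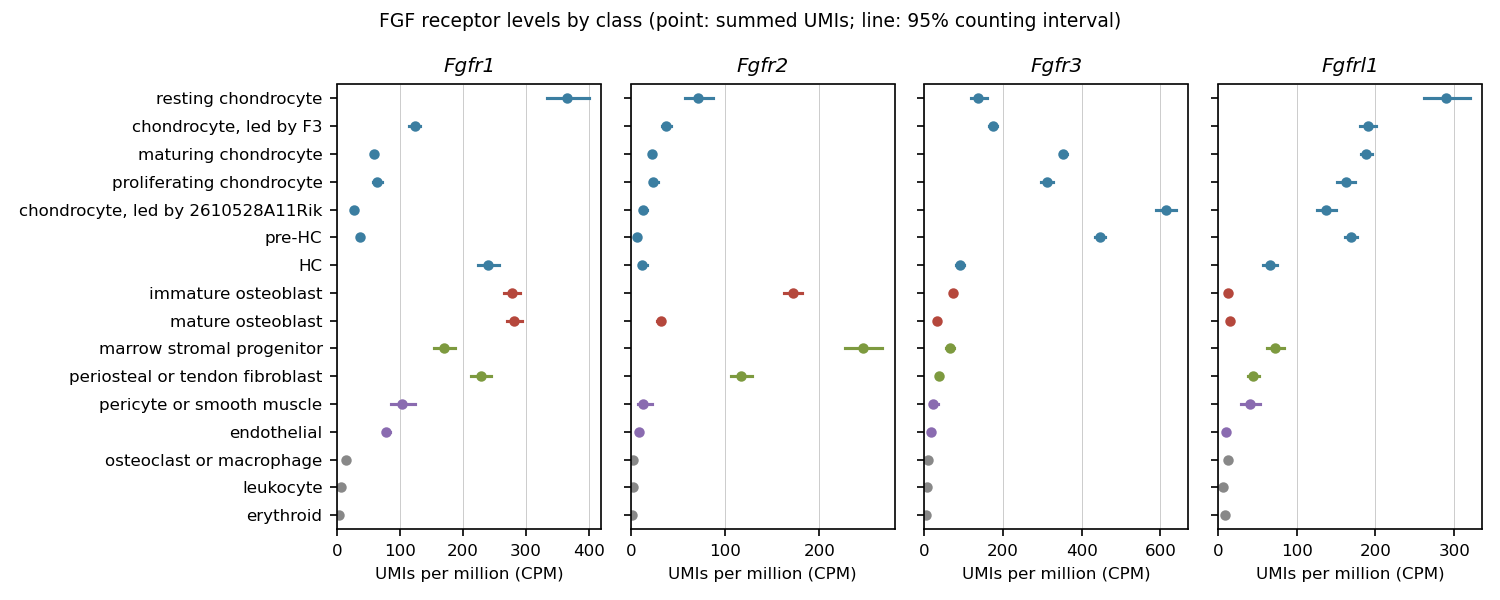
Levels of Fgfr1, Fgfr2, Fgfr3 and Fgfrl1 in CPM (x axes, different ranges) in the 16 classes (y axis, without "-like"; blue chondrocytes, red osteoblasts, green stroma, purple vessels, grey blood and osteoclast classes). Points are levels from summed UMIs and lines 95% counting intervals. Fgfr3 peaks in chondrocytes before the HC class at 614 CPM, while Fgfr1 is at 36.7 CPM in the pre-HC class and at 240 CPM in the HC class.

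Fgfr2 and Fgfrl1 were highest in the resting cells among chondrocytes. Fgfr2 (ENSMUSG00000030849, chr7:130162451-133123350, minus strand) held 71.2 CPM (57.6 to 87.0) in resting chondrocyte-like cells, 22.6 CPM (20.2 to 25.2) in maturing chondrocyte-like cells and 6.97 CPM (5.48 to 8.73) in pre-HC-like cells. In HC-like cells it was at 12.5 CPM (9.07 to 16.8). Fgfrl1 (ENSMUSG00000008090, chr5:108692382-108706924, plus strand) held 289 CPM (261 to 320) in resting chondrocyte-like, 188 CPM (181 to 196) in maturing chondrocyte-like and 169 CPM (161 to 177) in pre-HC-like cells. It was at 65.8 CPM (57.6 to 74.8) in HC-like cells and at 13.4 and 15.8 CPM in immature and mature osteoblast-like cells. Fgfr4 (ENSMUSG00000005320, chr13:55152640-55168759, plus strand) had 165 UMIs in all cells kept and no more than 5.25 CPM in any class, with no UMI in endothelial-like cells, where 3 counts would be 0.306 CPM.

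The receptor in the majority changed between stages. Of the summed UMIs of Fgfr1, Fgfr2 and Fgfr3, Fgfr1 made up 63.7% (60.2 to 67.1) in resting chondrocyte-like cells, 13.4% (12.6 to 14.2) in maturing chondrocyte-like cells, 7.50% (6.80 to 8.24) in pre-HC-like cells and 70.0% (67.4 to 72.6) in HC-like cells. Fgfr3 made up 91.1% in pre-HC-like and 26.3% in HC-like cells. Among thinned pre-HC-like cells, 69.5% had a UMI of Fgfr3 alone, 2.66% of Fgfr1 alone and 14.8% of both. Among thinned HC-like cells, 12.4% had Fgfr3 alone, 37.1% Fgfr1 alone and 18.1% both. At a clustering resolution of 1.5 the larger HC-like class held 258 CPM of Fgfr3 and 158.5 CPM of Fgfr1, so Fgfr1 was not in the majority there, although it was still higher than in pre-HC-like cells (log2 ratio 2.34). The resting class, with 479 cells at that resolution, held 229.7 CPM of Fgfr3 and 135.1 CPM of Fgfr1. Fgfr1 was thus not in the majority in that class either. At a resolution of 0.6 no cluster took the resting name.

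**Figure D2:**
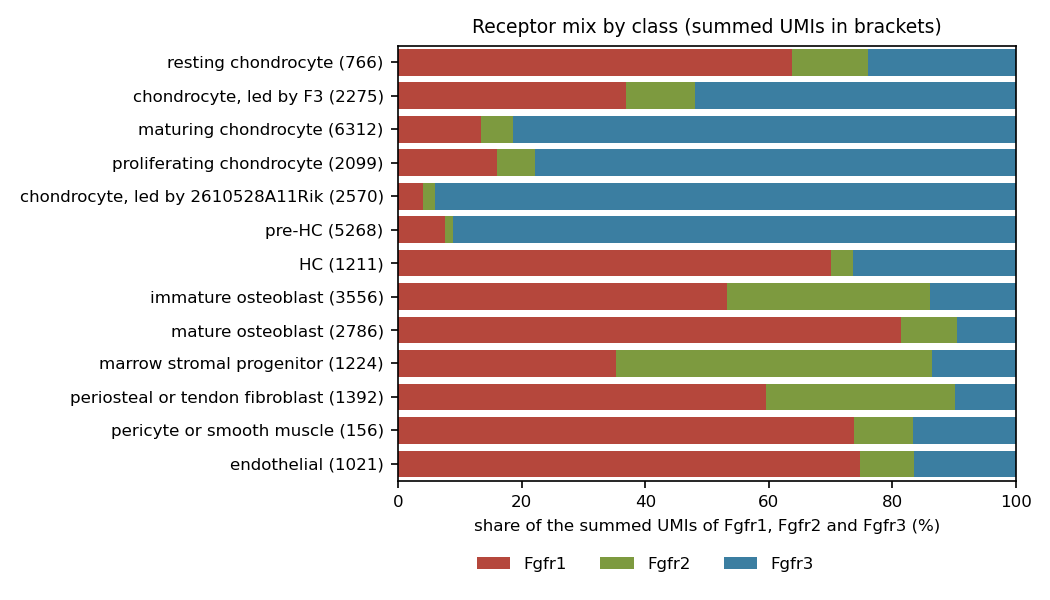
Share of Fgfr1 (red), Fgfr2 (green) and Fgfr3 (blue) in the summed UMIs of these receptors (x axis, %) in 13 classes (y axis, without "-like"), with the summed UMIs in brackets. Fgfr3 takes 91.1% in the pre-HC class and Fgfr1 70.0% in the HC class, and Fgfr2 has its largest share, 51.1%, in the marrow stromal progenitor class.

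To read levels across class borders, the maturing chondrocyte-like, 2610528A11Rik-led, pre-HC-like and HC-like cells were pooled and binned by the Col10a1 level of each cell. These bins were chosen after the class levels had been seen, and Col10a1 is also the gene that marks the HC-like class. Fgfr3 was at 401 CPM (392 to 410) in the 789 cells without Col10a1, at 468 CPM (441 to 497) in 82 cells over 100 to 1000 CPM of Col10a1, at 352 CPM (333 to 373) in 101 cells over 1000 to 10000 CPM, and at 128 CPM (113 to 145) in 57 cells over 10000 CPM. Fgfr1 was at 49.6 CPM (46.4 to 52.9), 62.9 CPM (53.2 to 73.9), 106 CPM (95.6 to 118) and 222 CPM (201 to 244) in the same bins. Between bins, the lower Fgfr3 and the higher Fgfr1 thus lay mainly above 1000 CPM of Col10a1. The bin over 1000 to 10000 CPM held 63 pre-HC-like and 37 HC-like cells. The bin over 10000 CPM held 7 and 50 of them. Bin and class thus overlapped in part, and levels were not split by class within a bin. Whether the receptors change with Col10a1 within a class was not tested. Fgfrl1 was lower from bin to bin, from 184.5 CPM without Col10a1 to 41.2 CPM (32.7 to 51.2) over 10000 CPM. Within 0.1 log10 units of the bin edges lay 29 cells at 100 CPM, 19 at 1000 CPM and 19 at 10000 CPM.

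**Figure D3:**
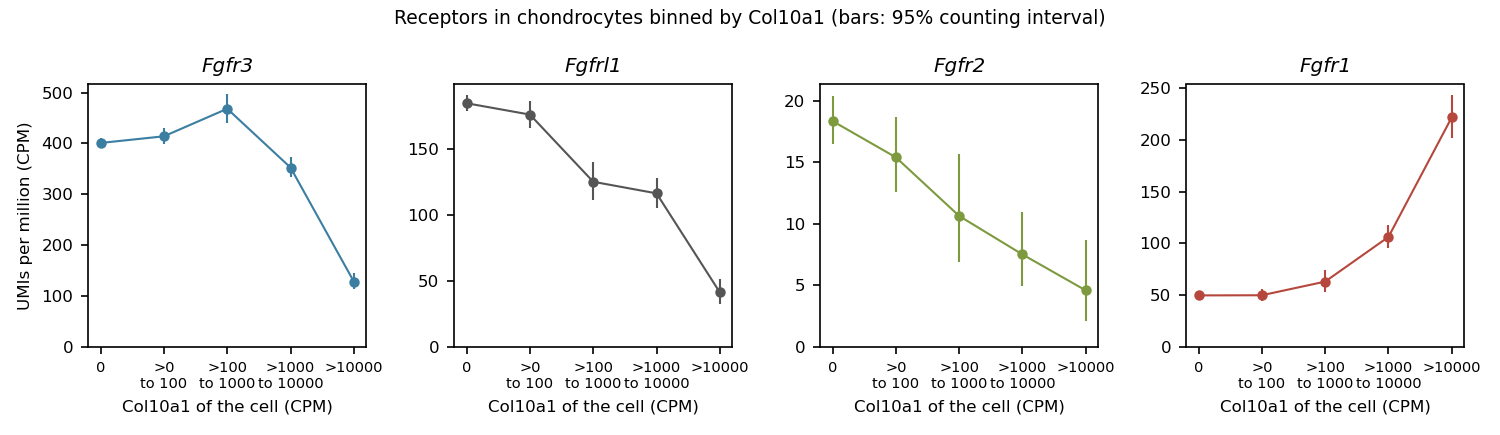
Levels of Fgfr3, Fgfrl1, Fgfr2 and Fgfr1 in CPM (y axes, different ranges, from 0) in chondrocytes binned by the Col10a1 level of the cell (x axis, CPM). Points are levels from summed UMIs and bars 95% counting intervals. Fgfr3 is at 128 CPM and Fgfr1 at 222 CPM in the bin over 10000 CPM of Col10a1.

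Across all tested genes, the step from resting to maturing chondrocyte-like cells had 5.85% of 7595 genes higher and 12.5% lower by a log2 ratio of at least 1 with at least 10 CPM in either class. Of the 5 members tested there, Fgfr3 was past this fold upward (1.36, 1.15 to 1.59) and Fgfr1 (-2.63, -2.82 to -2.49) and Fgfr2 (-1.61, -1.99 to -1.31) downward. At a clustering resolution of 1.5, with 479 in place of 120 resting cells, these values were 0.90, -1.55 and -0.98, so that only Fgfr1 stayed past the fold. From maturing chondrocyte-like to pre-HC-like cells, 4.18% of 6956 genes were higher and 2.83% lower, and of 5 members only Fgfr2 was past the fold, at -1.57 (-2.08 to -1.33), or -0.68 at that resolution. From pre-HC-like to HC-like cells, 22.6% of 7999 genes were higher and 5.88% lower. Of 5 members tested there, Fgfr1 was higher and Fgfr3, Fgfrl1 (-1.35, -1.56 to -1.16) and Fgf2 (-2.31, -3.66 to -1.77) were lower, with a member median of -1.35 against 0.46 over all genes tested. At a resolution of 1.5 Fgf2 (-0.97) and Fgfr3 were no longer past the fold.

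In bone, immature and mature osteoblasts had like levels of Fgfr1, while Fgfr2 and Fgfr3 were lower in the mature class. Fgfr1 was at 278 CPM (265 to 290) in immature and 282 CPM (270 to 294) in mature osteoblast-like cells, a log2 ratio of 0.02 (-0.07 to 0.11). Fgfr2 was at 172 CPM (162 to 182) in immature and 31.6 CPM (27.8 to 35.7) in mature osteoblast-like cells, a level 5.30 times lower, or a log2 ratio of -2.41 (-2.64 to -2.25). Its share of thinned cells was 56.4% against 14.2%. Fgfr3 was also lower in the mature class, at 33.1 against 73.0 CPM, a log2 ratio of -1.12 (-1.36 to -0.92). Of the 266 UMIs of Fgfr3 in the mature class, 138 lay in 17 cells of a sub-cluster led by cartilage genes, and without such mixed sub-clusters, an alternative added after seeing the data, the level was 17.4 CPM and the log2 ratio -2.16. With at most 5% mitochondrial UMIs it was -0.74, short of the fold. From immature to mature osteoblast-like cells, 4.68% of 8250 genes were higher and 18.0% lower past the fold. Of 5 members tested, 3 were past it downward, the third being Fgf7. The member median was -1.12 against -0.47 over all genes tested, so the 0.02 of Fgfr1 lay above that of the median gene.

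Against HC-like cells, immature osteoblast-like cells had far more Fgfr2, while a difference in Fgfr1 depended on the processing. The log2 ratio of the immature over the HC-like level was 0.21 (0.09 to 0.33) for Fgfr1, 3.68 (3.35 to 4.25) for Fgfr2, -0.31 (-0.51 to -0.10) for Fgfr3 and -2.22 (-2.67 to -1.94) for Fgfrl1. Here 17.2% of 8912 genes were higher and 15.6% lower, and of 5 members Fgfr2 and Fgf7 were past the fold upward and Fgfrl1 downward. With the larger HC-like class at a resolution of 1.5 the ratios were 0.83 for Fgfr1 and -1.72 for Fgfr3. The ratio of Fgfr1 was 0.36 with 3000 variable genes and 0.07 as a mean over cells of per-cell CPM. It was -0.0001 when cells were thinned to 5000 UMIs and -0.07 at a resolution of 0.6. At that resolution no cluster took the stromal name, and the immature and HC-like classes together held 868 in place of 633 cells. The immature class then held 32.8 CPM of Fgf7. Which cells had joined these classes was not tested. The ratio of Fgfrl1 was -1.10 at a resolution of 0.6 and -1.61 with at most 5% mitochondrial UMIs.

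Sub-clusters of the osteoblasts spread further in Fgfr2. In 221 cells led by Igf1, Aspn and Ogn, Fgfr2 was at 236 CPM (216 to 257), and Fgfr1 at 323 CPM (299.5 to 347). In 58 cells led by Mmp9, Cd55 and Igfbp7, Fgfr2 was at 118 CPM (94.8 to 146) and Fgfr3 at 24.5 CPM (14.5 to 38.7), and in 138 cycling osteoblasts they were at 106 CPM (93.3 to 119) and 68.7 CPM (58.9 to 79.8). Mature osteoblast-like sub-clusters led by Bglap3 and by Slc13a5 held 46.9 CPM (37.8 to 57.4) and 29.1 CPM (23.6 to 35.6) of Fgfr2. An osteocyte-like sub-cluster of 17 cells, with 5424 CPM of Dmp1 and 259 CPM of Sost, stood apart. It held 958 CPM (835 to 1094) of Fgfr1 and 1 UMI of Fgfr2, and all 17 cells had a UMI of Fgfr1 after thinning. The log2 ratio of its Fgfr1 level over that of the Slc13a5-led cells was 1.72 (1.502 to 1.94). A further 205 of the 907 osteoblast-like cells lay in sub-clusters led by genes of blood cells, chondrocytes or endothelium. Without them the log2 ratio of Fgfr2 between mature and immature classes was -2.40. Fibroblast and stromal genes did not count for this. Aspn and Ogn were also markers of the fibroblast-like class, and Lpl and Lepr, which led the Mmp9 cells too, of the stromal class. The part of such cells in the Fgfr2 difference was not tested.

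**Figure D4:**
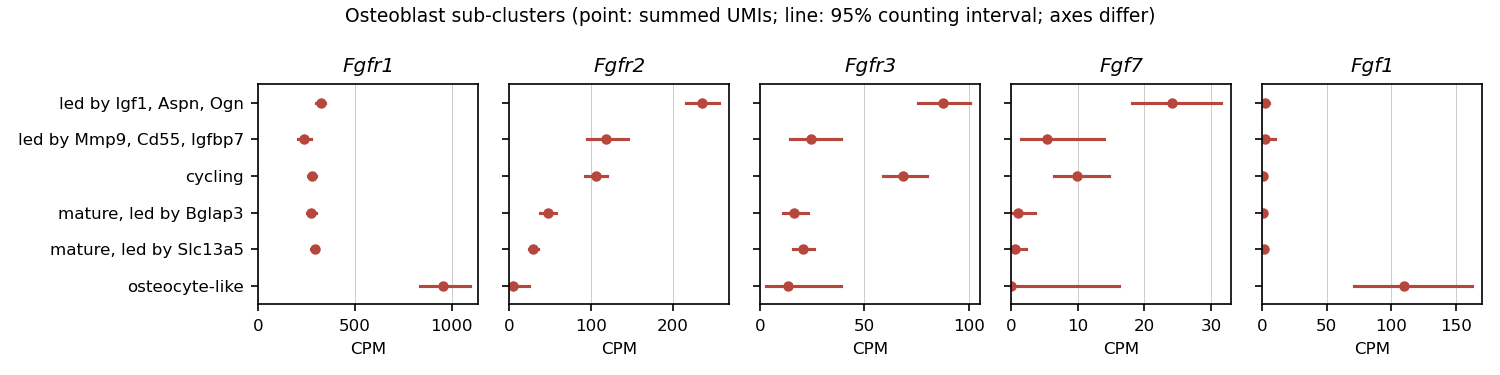
Levels of Fgfr1, Fgfr2, Fgfr3, Fgf7 and Fgf1 in CPM (x axes, different ranges, from 0) in 6 sub-clusters of osteoblast-like cells (y axis). Points are levels from summed UMIs and lines 95% counting intervals. Fgfr2 lies between 236 CPM in the cells led by Igf1 and 4.39 CPM in the osteocyte-like cells, which have the most Fgfr1, at 958 CPM.

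The reporter splits osteoblasts into HC-derived cells, with more than 14 UMIs of the WPRE sequence of the reporter transcript, and other cells, which can include HC descendants below the cutoff. Fgfr1 did not differ beyond counting error, at 270 and 280 CPM in the immature class (log2 ratio -0.06, -0.21 to 0.10) and 279 and 284 CPM in the mature class (-0.02, -0.15 to 0.10). Fgfr2 was lower in the HC-derived cells of both classes. It was at 114 CPM (98.4 to 131) in 107 HC-derived and 191 CPM (179 to 204) in 421 other immature osteoblast-like cells, a log2 ratio of -0.74 (-0.98 to -0.53). In the mature class it was at 21.6 CPM (16.5 to 27.8) in 128 and 37.0 CPM (32.0 to 42.6) in 251 cells, a log2 ratio of -0.75 (-1.22 to -0.35). Fgfr3 did not differ beyond counting error in either class (0.01, -0.29 to 0.31, and 0.17, -0.19 to 0.54).

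The make-up of the HC-derived cells differed too. Of the 221 cells led by Igf1, Aspn and Ogn, which had the most Fgfr2, 3 were HC-derived, against 28 of the 58 cells led by Mmp9, 42 of the 138 cycling cells and 82 of the 161 cells led by Slc13a5. A mixed sub-cluster of 141 cells led by S100a9, S100a8 and Ngp held 56 HC-derived cells. Without mixed sub-clusters, 58 in place of 107 HC-derived cells were left in the immature class and 112 in place of 128 in the mature class. The log2 ratios of Fgfr2 were then -0.76 and -0.68. Within sub-clusters, examined after the split over classes had been seen, the log2 ratio of Fgfr2 between HC-derived and other cells was -0.66 (-1.10 to -0.26) in cycling cells, 0.19 (-0.45 to 0.84) in cells led by Mmp9 and -0.31 (-0.93 to 0.29) in cells led by Slc13a5. In cells led by Bglap3 it was -1.69 (-4.06 to -0.16), from 3 UMIs in 11 HC-derived cells, and in cells led by Igf1 -0.75 (-2.63 to 0.61), from 4 UMIs in 3 HC-derived cells. Fgfr3 was higher in the HC-derived cells led by Mmp9 (2.02, 0.32 to 4.57, from 15 and 3 UMIs). In the other sub-clusters examined, Fgfr3 did not differ beyond counting error.

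Among the classes, stromal cells held the most Fgfr2. It was at 246 CPM (228 to 266) in marrow stromal progenitor-like cells, which were marked by 8737 CPM of Cxcl12. The osteoblast sub-cluster led by Igf1 was close, at 236 CPM. In the stromal cells Fgfr2 made up 51.1% (48.3 to 54.0) of the summed UMIs of Fgfr1, Fgfr2 and Fgfr3. Fgfr1 was at 170 CPM (154 to 187), Fgfr3 at 65.3 CPM (55.8 to 76.1) and Fgfrl1 at 72.4 CPM (62.3 to 83.7) in these cells. Compared with immature osteoblast-like cells, the log2 ratio was 0.52 (0.38 to 0.66) for Fgfr2, -0.70 (-0.86 to -0.56) for Fgfr1 and 2.35 (2.07 to 2.82) for Fgfrl1. In that comparison 6.10% of 8643 genes were higher and 2.19% lower, and Fgfrl1 and Fgf7 were past the fold upward among 6 members tested. At a clustering resolution of 0.6 no cluster took the stromal name, so this comparison has no value there. The log2 ratio of Fgfr2 was 0.27 at a resolution of 1.5 and 0.32 when cells were thinned to 5000 UMIs. As a mean over cells of per-cell CPM it was 0.35.

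The periosteal or tendon fibroblast-like class joined a pair of unlike clusters. The cluster led by Aspn had 216 CPM (194 to 238) of Fgfr2, and the cluster led by Mfap5 had 22.7 CPM (16.3 to 30.6), a log2 ratio of 3.19 (2.79 to 3.75). Fgfr1 was closer, at 198 CPM (178 to 219) and 258 CPM (235 to 282). The haemoglobin gene Hbb-bs was at 49129 CPM in the Aspn-led and 295 CPM in the Mfap5-led cluster, and the cartilage gene Col2a1 at 503 and 3902 CPM. Their part in these differences was not tested.

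Vessel cells had less Fgfr1 than the osteoblast and stromal classes. Fgfr1 was at 103 CPM (85.1 to 124) in pericyte or smooth muscle-like and 77.9 CPM (72.5 to 83.6) in endothelial-like cells. Fgfrl1 was at 40.3 CPM (29.4 to 54.0) in the pericyte or smooth muscle-like cells and 10.2 CPM (8.30 to 12.4) in endothelial-like cells. Within the endothelial-like cells, the sub-cluster led by Eln, Gja4 and Sema3g, genes known from arterial endothelium, held 112 CPM (93.2 to 134) of Fgfr1 and 43.6 CPM (32.0 to 58.0) of Fgfr3. In the smaller endothelial cluster led by Eln in the clustering of all cells, Fgfr3 was at 78.9 CPM (59.6 to 102). Sinusoidal endothelial-like cells, marked by Stab2, held 55.8 CPM (44.1 to 69.6) and 11.4 CPM (6.54 to 18.6). The log2 ratio of Fgfr3 in the sub-cluster led by Eln, Gja4 and Sema3g over the sinusoidal cells was 1.84 (1.09 to 2.85). Col2a1 was at 602 CPM in that sub-cluster and 670 CPM in the sinusoidal cells. What part cartilage RNA had in the Fgfr3 levels was not tested in any of these groups.

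Among the ligands, Fgf7, a ligand known to act on the epithelial form of Fgfr2, was highest in marrow stromal progenitor-like cells. The gene (ENSMUSG00000027208, chr2:126034658-126091185, plus strand) was at 76.0 CPM (65.6 to 87.5) there, with a UMI in 23.6% of thinned cells, against 0.168% of leukocyte-like cells. It was at 16.0 CPM (13.2 to 19.3) in immature osteoblast-like cells, a log2 ratio of 2.18 (1.90 to 2.60), at 16.0 CPM (12.1 to 20.6) in periosteal or tendon fibroblast-like cells and at 1.12 CPM (0.512 to 2.12) in mature osteoblast-like cells. In chondrocyte classes it lay between 0.279 and 3.12 CPM. The same class thus held the highest levels of Fgf7 and Fgfr2, but counts of transcript ends do not show which splice form of Fgfr2 was made.

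Fgf18 was low throughout. The gene (ENSMUSG00000057967, chr11:33117430-33147400, minus strand) reached 13.4 CPM (9.27 to 18.7) in marrow stromal progenitor-like and 12.1 CPM (8.80 to 16.3) in periosteal or tendon fibroblast-like cells, which do not differ beyond counting error. It was at 7.64 CPM (5.71 to 10.0) in immature and 5.22 CPM (3.77 to 7.06) in mature osteoblast-like cells, a log2 ratio of -0.47 (-1.17 to 0.07). In chondrocytes the highest level was 8.08 CPM (6.09 to 10.5), in the cluster led by F3, and the level in leukocyte-like cells was 0.401 CPM.

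Fgf2 was a ligand of chondrocytes and fibroblasts. The gene (ENSMUSG00000037225, chr3:37348346-37410108, plus strand) was at 30.7 CPM (22.1 to 41.7) in resting chondrocyte-like cells, 17.1 CPM (15.1 to 19.4) in maturing chondrocyte-like cells and 19.4 CPM (16.9 to 22.2) in pre-HC-like cells, and then at 3.12 CPM (1.56 to 5.58) in HC-like cells. In the fibroblast cluster led by Mfap5 it was at 26.5 CPM (19.6 to 35.0). In some alternatives the periosteal or tendon fibroblast-like class had the highest level, at 24.5 to 24.8 CPM. These were 3000 variable genes, clustering resolutions of 0.6 and 1.5, and thinning to 5000 UMIs, which kept the classes unchanged. Osteoblast classes held 2.79 and 2.11 CPM, and leukocyte-like cells 0.515 CPM.

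Fgf1 was found in small and separate groups. It was at 20.6 CPM (13.1 to 30.9) in pericyte or smooth muscle-like cells, from 23 UMIs in 20 of 106 cells, and at 109.9 CPM (71.1 to 162) in the osteocyte-like sub-cluster, from 25 UMIs in 11 of 17 cells. No other class was over 6.24 CPM, the level of HC-like cells. In endothelial-like cells, 23 of 39 UMIs lay in 1 cell, and the level was 1.23 CPM without the 5 cells with most UMIs.

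**Figure D5:**
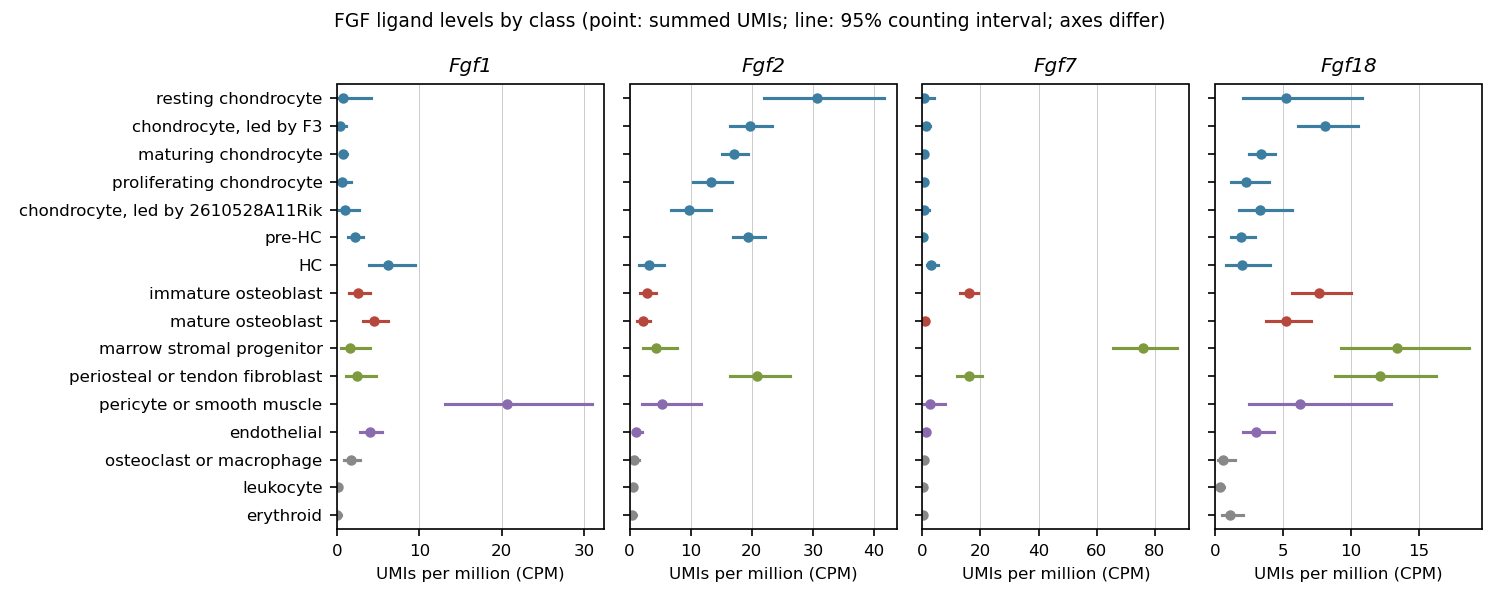
Levels of Fgf1, Fgf2, Fgf7 and Fgf18 in CPM (x axes, different ranges, from 0) in the 16 classes (y axis, without "-like"; colours as blue chondrocytes, red osteoblasts, green stroma, purple vessels and grey blood and osteoclast classes). Points are levels from summed UMIs and lines 95% counting intervals. Fgf7 peaks in marrow stromal progenitors at 76.0 CPM, Fgf2 in resting chondrocytes at 30.7 CPM and Fgf1 in pericytes at 20.6 CPM.

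Of 18 further FGF ligand genes, Fgf9, Fgf13 and Fgf21 reached 10 CPM in a class. Fgf21, an endocrine FGF, was found in HC-like cells at 119.7 CPM (108.5 to 132), from 422 of its 585 UMIs in all cells. It was at 2.42 CPM (1.58 to 3.54) in pre-HC-like cells, and immature osteoblast-like cells had no UMI of it, where 3 counts would be 0.441 CPM. These UMIs lay in 33 of the 105 HC-like cells, with 121 in 1 cell and 62.8% in 5 cells. Without those 5 cells the level was 47.5 CPM. Fgf9 was at 11.3 CPM (8.10 to 15.3) in periosteal or tendon fibroblast-like cells, and Fgf13, an intracellular family member, at 29.9 CPM (23.6 to 37.4) in marrow stromal progenitor-like cells. Fgf23, the phosphate-regulating hormone known from osteocytes, had no UMI in 227506 UMIs of the osteocyte-like cells, where 3 counts would be 13.2 CPM. Of its 42 UMIs, 28 were in sinusoidal endothelial-like cells, at 20.02 CPM (13.3 to 28.9) in 14 of 124 cells. There 64.3% of the UMIs lay in 5 cells, and without them the level was 7.84 CPM.

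The other pathway genes were read from lists of co-receptors and binders (25 in the matrix), adaptors (10), feedback inhibitors (12) and transcriptional targets and effectors (12), which with the 18 further ligands make 77 pathway genes. Feedback inhibitors, which are transcribed in answer to FGF and other receptor signals and damp them, were mostly lower in maturing than in resting chondrocytes. Of 6 tested, 5 were lower past the fold and none higher, where 12.5% of all genes were lower and 5.85% higher, with a median of -1.40 against -0.08 over all genes tested. Dusp6, a phosphatase of ERK, was at 33.0 CPM in resting and 2.06 CPM in maturing chondrocyte-like cells (log2 ratio -3.47, -4.72 to -3.30). Spry2, an inhibitor of RAS activation, was at 95.2 and 13.8 CPM (-2.70, -3.11 to -2.45). Dusp5, another phosphatase of ERK, was at 99.7 CPM in resting, 46.1 CPM in maturing and 88.8 CPM in pre-HC-like cells, and highest of all classes in the cluster led by F3, at 159.8 CPM. Among 10 transcriptional targets and effectors tested in this step, 4 were lower past the fold (Etv5, Spp1, Cdkn1a and Npr2) and 3 higher. The 3 higher genes, named after their values were seen, were Runx2 (63.7 and 141.9 CPM), Snai1 (26.2 and 56.9 CPM) and Ccnd1 (36.0 and 73.7 CPM). Etv5, a transcription factor induced by FGF signals, was at 27.7 and 1.31 CPM (-3.64, -5.29 to -3.57). At a clustering resolution of 1.5, where the resting class grew from 120 to 479 cells, 6 in place of 19 pathway genes were past the fold in this step.

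At the later chondrocyte steps the pathway lists moved less evenly. From maturing chondrocyte-like to pre-HC-like cells, 3 of 33 pathway genes tested were higher and 3 lower, against 4.18% and 2.83% of all genes. The largest ratio was that of Spp1, the bone matrix protein osteopontin, at 619.5 against 58.4 CPM (3.39, 3.30 to 3.51). The other genes higher were Cdkn1a, a cell cycle inhibitor, at 477 against 130 CPM (1.86, 1.80 to 1.95) and Gpc4, a glypican, at 33.6 against 16.3 CPM. Those lower were Flrt2 (4.65 against 17.3 CPM), Sdc1 (13.2 against 27.8 CPM) and Ccnd1, cyclin D1, at 30.9 against 73.7 CPM (-1.23, -1.44 to -1.07). From pre-HC-like to HC-like cells, 12 of 37 were higher and 6 lower, against 22.6% and 5.88% of all genes. Spp1 was at 15454.5 against 619.5 CPM (4.64, 4.60 to 4.68). The heparan sulphate sulphatases Sulf1 (138.7 against 5.85 CPM, 4.35, 4.19 to 4.97) and Sulf2 (55.3 against 10.4 CPM, 2.30, 2.07 to 2.76) were higher in HC-like cells. Sox9, the chondrocyte transcription factor, was lower (262 against 1094 CPM, -2.06, -2.16 to -1.96). The feedback inhibitors past the fold were Spred2, at 13.6 against 3.72 CPM (1.63, 1.24 to 2.52), and Spry2, at 39.4 against 17.5 CPM (1.13, 0.85 to 1.499).

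From immature to mature osteoblast-like cells, 14 of 46 pathway genes tested were lower and 1 higher, against 18.0% and 4.68% of all genes, with a median of -0.64 against -0.47 over all genes. Of 8 feedback inhibitors tested, 3 (Dusp6, Spry4 and Spry2) were lower past the fold and none higher. In the same order Spred1 was at 53.9 and 55.6 CPM, and Spry1 at 9.70 and 17.2 CPM. Dusp6 was at 32.6 and 9.58 CPM in immature and mature cells (-1.67, -2.16 to -1.39), Spry4 at 35.1 and 13.9 CPM (-1.27, -1.67 to -1.004) and Sdc1, a heparan sulphate proteoglycan and the second-ranked co-receptor or binder after Sulf1 (56.9 and 6.47 CPM), at 132.5 and 20.8 CPM (-2.62, -2.92 to -2.43). The gene higher in mature cells was Snai1, at 49.9 against 17.8 CPM (1.44, 1.19 to 1.79). From HC-like to immature osteoblast-like cells, 18 of 46 were higher and 7 lower, against 17.2% and 15.6% of all genes. Spry4 was at 2.55 CPM in HC-like and 35.1 CPM in immature osteoblast-like cells (3.35, 2.83 to 4.93).

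From immature osteoblast-like to marrow stromal progenitor-like cells, 6 of 47 pathway genes tested were higher and 2 lower, against 6.10% and 2.19% of all genes. Those lower were Spp1 (16720.7 and 4407.3 CPM) and Ccnd1 (60.4 and 21.65 CPM). The largest difference among feedback inhibitors was Spry1, at 86.6 against 9.70 CPM (3.03, 2.76 to 3.58), and Sulf1 was at 187 against 56.9 CPM (1.70, 1.52 to 1.92). Endothelial-like cells held the highest Dusp6, at 170.5 CPM, and pericyte or smooth muscle-like cells the highest Spry4, at 108.5 CPM. Among the 13 classes of chondrocytes, osteoblasts, stroma and vessels, 3 of the 10 feedback inhibitors that reached 10 CPM were highest in endothelial-like cells. Another 4 were highest in pericyte or smooth muscle-like cells. They include Cbl, which was higher in leukocyte-like cells (91.6 against 56.5 CPM), and Spry2, at 95.9 CPM against 95.2 CPM in resting chondrocyte-like cells. Of 9 adaptors, 5 were also highest in endothelial-like cells among these 13 classes. They include Grb2, at 74.7 CPM against 73.7 CPM in HC-like cells. Grb2 was higher in osteoclast or macrophage-like (209 CPM) and leukocyte-like cells (103.5 CPM). The share of all genes highest in these classes was not computed.

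Across the 16 classes, the genes whose log2 level (10 CPM added) ran most like Fgfr3 among 6074 genes were Fasn, Nog, Pak3, Slc26a2 and Scd2 (Pearson r 0.95 to 0.96). For Fgfr1 they were Ltbp3, Ergic3, Tmem59, Samd4 and Cuedc1 (0.90 to 0.97), and for Fgfr2 Dclk1, Thsd4, Cpxm1, Clmp and Scara3 (0.92 to 0.96). For Fgfrl1 they were S100b, Edil3, Col27a1, Slc35e3 and Plekhh2 (0.95 to 0.97). For Fgf7 they were Fmo1, Dpep1, Aldh1a2, Gdpd2 and Ackr4 (0.96 to 0.98), for Fgf2 1500015O10Rik, Igf2, Thbs3, Zim1 and Itm2a (0.94 to 0.97), and for Fgf1 Itga7, Ajuba, Map3k7cl, Myh11 and Parm1 (0.89 to 0.94). These values describe 16 classes of 1 library and carry no test.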

How the data were processed

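Cells from 2 tibiae of 1 mouse were sequenced as 1 10x library. The authors deposited raw UMI counts per gene and barcode, made with Cell Ranger 3.1.0 on mm10 and analysed with Seurat 3 according to the submitters' processing notes. Which annotation release they used was not given in the sources used here. Gene positions are those of GENCODE M21. Another sample of the study, from adult bone, was not analysed here. The members and lists were chosen with earlier results of these data known.

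Of 14181 barcodes, the 8705 with at least 1600 genes were taken and 449 over 10% mitochondrial UMIs left out, which kept 8256 cells with 137265974 UMIs. Counts were scaled to 10000 per cell, and 2000 variable genes were taken without the FGF and pathway genes. With 30 principal components, 20 neighbours and Leiden resolution 1 (0.6 for sub-clusters) they gave 31 clusters (scanpy 1.11.5, Python 3.11.15, seed 1). Classes were named from marker lists, with thresholds set after the clusters were seen, so they may differ from the study's. Of the clusters, 4 with 390 cells stayed unnamed. Doublet calls by Scrublet (588 barcodes, 4.15%) removed no cell. Levels are summed counts per 1000000 UMIs with exact 95% Poisson intervals, shares have exact (Clopper-Pearson) binomial intervals, and all cover counting error only. A class without a UMI is given the level of 3 counts. The pathway genes named in a comparison are, unless said otherwise, among the 4 with the largest absolute log2 ratios of their list there, and genes like a member the highest Pearson r among genes of at least 50 CPM in a class. Fold calls and counting intervals were checked on simulated Poisson counts of the immature and mature osteoblast-like classes, without spread between cells. Clustering, naming, thinning and the reporter split were not simulated. Alternatives are given in the closing section.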

Additional observations from a re-analysis of the deposited data

How the results depend on the processing

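With 1 library no replicate could be left out. No paired analysis was possible because the 4 sequencing entries were deposited as 1 matrix. Of 80 alternative values of the log2 ratios in the main comparisons, 67 kept within their counting intervals and 13 moved. Fgfr3 in pre-HC-like over maturing chondrocyte-like cells was 0.33. It became 0.40 at 5% mitochondrial UMIs, 0.42 when thinned to 5000 UMIs and 0.42 at resolution 0.6. It was 0.17 at resolution 1.5 and -0.17 with FGF and pathway genes kept. From pre-HC-like to HC-like cells at resolution 1.5, Fgfr1 became 2.34 (from 2.68) and Fgfr3 -0.90 (from -2.29). Fgf7 in stromal over immature osteoblast-like cells (2.18) became 2.85 at 5% mitochondrial UMIs and 1.66 when thinned, and could not be computed at resolution 0.6. Fgfr2 in HC-derived over other immature osteoblast-like cells (-0.74) became -0.47 at 5% mitochondrial UMIs, with 23 HC-derived cells left. It became -0.49 at resolution 0.6, where no cluster took the stromal name and the immature class held 143 in place of 107 HC-derived cells. In mature osteoblast-like cells (-0.75) it became -1.38 when thinned. Fgfr2 in mature over immature osteoblast-like cells (-2.41) became -2.16 with FGF and pathway genes kept. Beyond those, the log2 ratio of Fgf2 between HC-derived and other mature osteoblast-like cells was 1.19 from 11 and 6 UMIs, and turned to -0.85 when thinned and -0.11 without mixed sub-clusters, which was added after seeing the data. The number of pathway genes past the fold fell with 10 CPM added in place of 1, from 6 to 3 from maturing to pre-HC-like cells, from 25 to 15 from HC-like to immature osteoblast-like cells, from 15 to 8 from immature to mature and from 8 to 5 from immature osteoblast-like to stromal cells. At resolution 1.5 it fell from 19 to 6 between resting and maturing chondrocyte-like cells and from 6 to 3 between maturing and pre-HC-like cells. The cause of these changes was not tested. Fgfr1 was highest in resting chondrocyte-like cells except at resolutions 0.6 and 1.5 and with 3000 variable genes, where an osteoblast-like class was highest. At the depth reached, Fgfr4, Fgf1 and Fgf18 rest on few UMIs in most classes.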
